A study of Schmidtea mediterranea with 6 samples.

Results

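Differentiated cells of the planarian flatworm Schmidtea mediterranea were compared with its stem cells at 1259 poly(A) sites, out of 5054 sites on a custom array. The cells were sorted by flow cytometry from the sexual strain. The labels describe the cells of the X1 gate as stem cells, those of Xins as differentiated and those of X2 as progenitors. None of the RNA was treated, each gate was measured on 2 arrays, and the labels call the sites distal. A site is the stretch of a genome contig that closes a probe's name, given by contig, strand, start and end; the labels call such stretches peaks, and they are read here as the span of mapped transcript ends. A site was included where a probe sequence was marked well above background by the scanner software on both arrays of X1 or on both arrays of Xins. Sites, not probes, were counted, and a site entered through several transcript models counts once.

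Planarian stem cells, called neoblasts, divide throughout adult life and give rise to every other cell type. The X1 gate collects cells with more DNA than a resting cell, so it holds neoblasts that are copying their DNA or about to divide. The Xins gate collects the kinds of cells that persist when irradiation removes the dividing ones. It includes muscle, nerve, gut, epidermis and other mature types. The end of an mRNA is set where the precursor is cut and a poly(A) tail is added, usually shortly after the hexamer AATAAA or a close variant, which the cleavage machinery binds. Many genes have more than a single such site, and the series asks how transcripts with different ends are expressed in stem, progenitor and differentiated cells. No gene name stands beside the transcript models in the files, so no gene is named, and the gates could not be set against known marker genes of these cell types. A lower signal can come from fewer cells that hold a transcript or from less transcript in each cell, and the 2 cannot be told apart here.

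The probe sequences below belong to the sites with the largest changes. They are the last 30 bases of each probe, 5′ to 3′, as the array files give them. Capitals mark AATAAA that starts 10 to 30 bases before the probe's end (for a probe with several, 1 of them), and a sequence without capitals has neither AATAAA nor ATTAAA there. The first 4 are the largest rises from X1 to Xins, and the other 4 are the largest falls, among sites above background on all 4 arrays of these gates.
Contig1945 plus: ctgtcgaaaaacttgtagaaaatgttatga
Contig401 minus: aaatatattttggattgtgtcaccgttgta
Contig10432 plus: attttAATAAActtttttatttaaatattt
Contig6828 minus: taatgcaaaatgatttagtgAATAAAtgtg
Contig3562 plus: actAATAAAtgttgttgatttagttgtttt
Contig158 plus: gttcggattaattacagattttaaatgact
Contig34612 plus: ataaaaattactttgtgtttctatttaaaa
Contig11981 plus: gtttctatttaaAATAAAataatgttgata
AATAAA stands in both groups, and 2 of these rises and 2 of these falls lack it. The probes of the last pair share a stretch of sequence, and these sites are described together.

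On the array as a whole, 3419 of the 3795 sites left out had no array of X1 or Xins above background, and 376 had 1 or 2 such arrays but not both of a gate. The lowest signals marked well above background were -6.44 and -5.30 on X1 arrays 1 and 2, and -6.22 and -5.27 on Xins arrays 1 and 2. Signals are given as log2 intensity after subtracting each array's 75th percentile, so 1 unit is a factor of 2 within a probe. Signals of different probes are not compared, since each probe binds its target differently. All 6 arrays lay on 1 slide. Across the tested sites, Pearson's r between arrays was 0.973 within X1, 0.952 within Xins and 0.728 to 0.754 between the gates. The points are sites on shared arrays, so r is a description. The labels do not state whether the arrays of 1 gate hold separate collections of cells, so a p-value here reflects the scatter of these arrays alone, and that scatter may be technical.

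Of the sites measured in both gates, 45.6% differed between differentiated and stem cells, in about equal numbers each way. Of the 881 sites well above background on all 4 arrays, 196 were higher in Xins (22.2%) and 206 were lower (23.4%) at an adjusted p under 0.05 in limma's moderated test. Over all 1259 tested sites, 678 were called (53.9%), of which 332 were higher (26.4%) and 346 lower (27.5%). The rest of the calls came from sites above background on both arrays of 1 gate and on fewer of the other. Such a site passed the filter through the gate where it is bright, so its direction was fixed by the filter. Of the 96 sites with both Xins arrays and 1 X1 array above background, 63 were called higher, and of the 123 with both X1 arrays and 1 Xins array, 73 were called lower. The arrays of X1 and Xins did not overlap at 664 of the 881 sites (75.4%), and at none of the 402 called sites did they overlap.

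**Figure D1:**
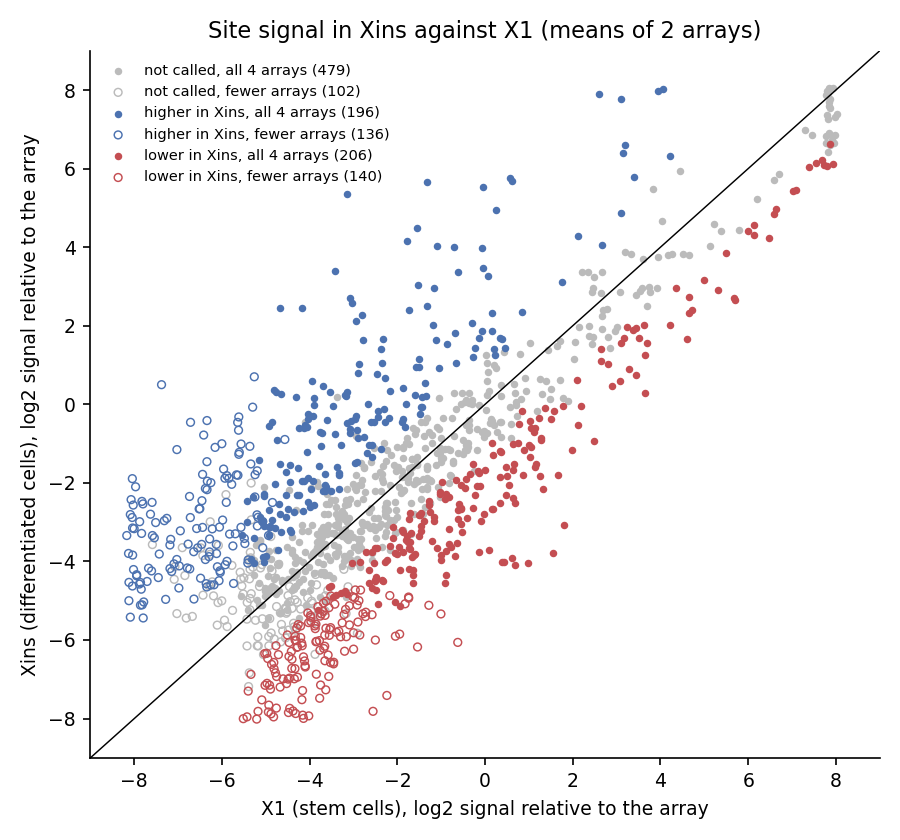
Signal of the 1259 tested sites in X1 (horizontal) and Xins (vertical), each the mean of 2 arrays in log2 units relative to the array's 75th percentile, with the line of equal signal. Filled points are the 881 sites above background on all 4 arrays and open points the others; 196 filled points were called higher in Xins and 206 lower, and the higher ones reach farther from the line.

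The largest rises exceeded the largest falls. Among sites above background on all 4 arrays, the median fold of the 196 rises was 4.85, with quartiles of 3.17 and 12.1. The 206 falls had a median of 3.59-fold, with quartiles of 2.83 and 5.57. A change of at least 16-fold was seen at 34 rises and 7 falls, and one of at least 64-fold at 6 rises and 0 falls. The smallest called change was 0.99 on the log2 scale in each direction. For the median site, the 95% interval reached 1.03 log2 units to each side of the estimate.

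At most sites that were not called, the interval left room for a change of more than 2-fold. The intervals come from a fit without the replicate number as a term, so an offset shared by same-numbered arrays widens them. Of the 479 uncalled sites measured on all 4 arrays, 387 had an estimate within 2-fold, but at 23 alone did the whole interval lie within 2-fold either way. The uncalled sites with estimates of 4-fold or more numbered 5. At Contig1133 (plus strand, 32017 to 32018), signals were 1.04 and 1.81 in X1 and 0.9 and 1.85 in Xins; the log2 fold change was -0.05 with an interval from -1.36 to 1.26. The signals of the gates interleave, and array 1 read lower than array 2 in both. At Contig3054 (plus strand, 48180 to 48225), X1 read 3.92 and 3.27 and Xins 3.14 and 4.24, while X2 read 4.88 and 5.49. Both X2 arrays lay above all arrays of the other gates, so equal levels at the ends did not mean an equal level between them; that difference was not tested. The site at Contig621 (plus strand, 122169 to 122232) read 7.3 and 8.45 in X1 and 7.51 and 8.04 in Xins, and a spot of its probe was saturated.

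Among sites above background on all 4 arrays, the largest rises took sites from low signals in X1 to bright signals in Xins. On Contig1945 (2917 to 2983, plus strand), the site of OX_Smed_1.0.03368 read -2.83 and -3.47 on the X1 arrays and 4.58 and 6.13 on the Xins arrays. Its log2 fold change was 8.5 (SE 0.57), with an adjusted p of 0.000456 in limma. X2 lay between them at 1.01 and 0.93. A second sequence of the site was not above background in X1 and read -6.1 and -4.72 in Xins. With the mean of both sequences the change was 5.6, so its size rests on the choice of sequence.

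On Contig401 (85671 to 85683, minus strand), the site of mk4.000401.10.01 read -4.77 and -4.57 in X1 and 2.48 and 2.43 in Xins, a rise of 7.13 on the log2 scale (SE 0.43). The arrays of each gate lay close together and far from those of the other. At Contig10432 (plus strand, 24998 to 25062) X1 read -1.56 and -1.11 and Xins 4.65 and 6.66. The change was 6.99 (SE 0.67), and the arrays of Xins differed from each other more than at the Contig401 site.

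X2 sided with the stem cells at the site on Contig6828 (minus strand, 2795 to 2864). X1 read -2.98 and -3.86 there, X2 -3.57 and -2.95, and Xins 3.01 and 3.75. X1 and X2 overlap and Xins stands apart, by 6.81 over X1 (SE 0.48). A second probe sequence, offset by 8 bases and so not an independent measurement, gave 6.66.

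The other 4 of the 8 largest rises on all 4 arrays were between 5.78 and 6.62. At Contig3138 (minus strand, 3264 to 3373) X1 read -3.92 and -4.43 and Xins 2.47 and 2.41. At Contig610 (minus strand, 55601 to 55610) X1 read -2.88 and -3.29 and Xins 2.73 and 2.66. Both sites had X2 arrays between the gates. The sites on Contig4422 (plus strand, 15041 to 15128) and Contig6902 (plus strand, 34981 to 35065) rose by 6.04 and 5.93. Their probes share a stretch of at least 25 bases, so they are not independent measurements, and whether each probe binds the other's transcript was not tested. A second sequence at Contig4422 was above background on none of the 4 arrays.

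**Figure D2:**
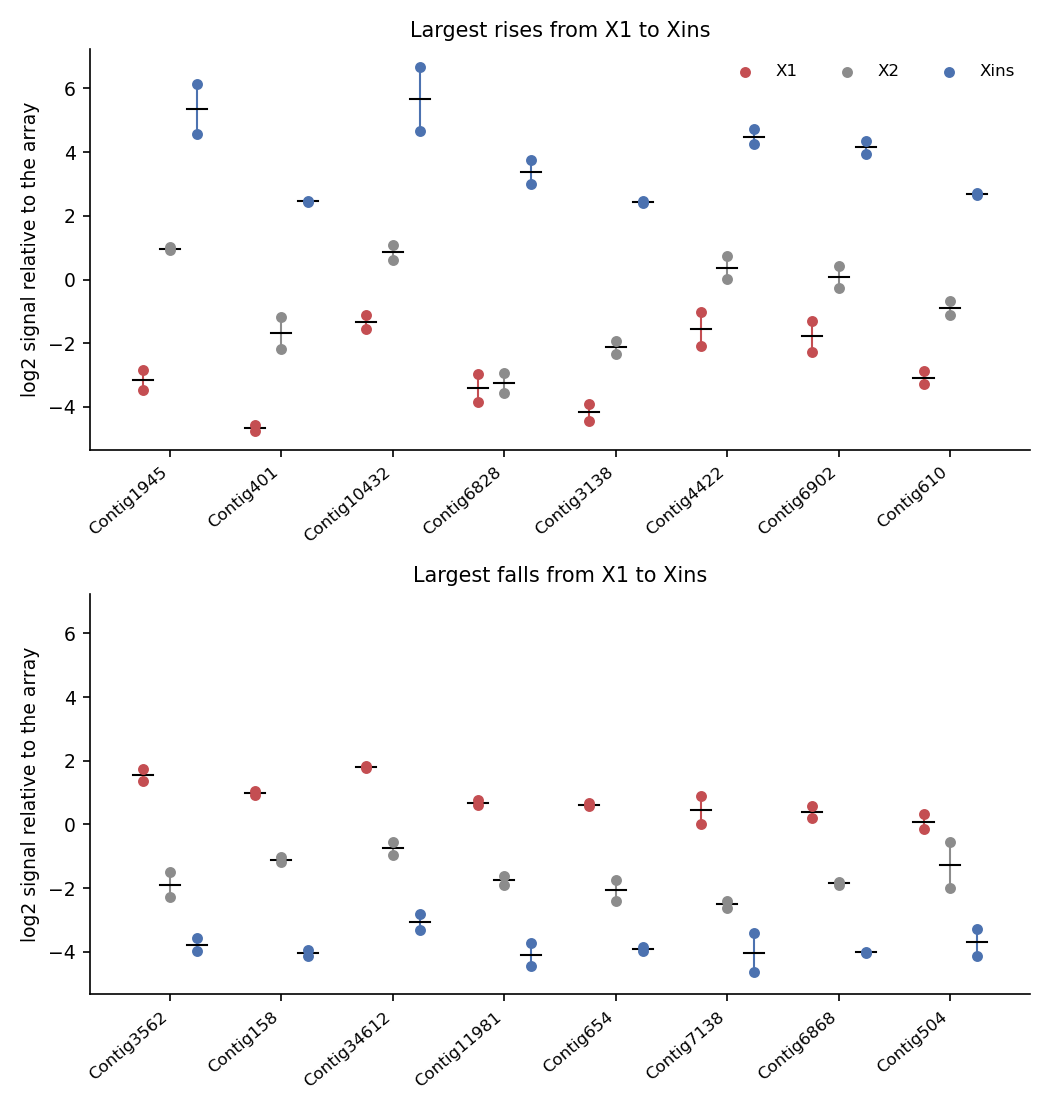
Log2 signal on each array (points), with the mean of each gate (bar), for the 8 largest rises (top) and 8 largest falls (bottom) among sites above background on all 4 arrays, named by contig. At the rises Xins reaches means of 2.44 to 5.65 from X1 means of -4.67 to -1.33; at the falls X1 means of 0.08 to 1.8 come down to -4.09 to -3.08 in Xins.

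The largest falls ran from moderate signals in X1 to faint ones in Xins. The site of dd_smedV4_21323_0_1 (Contig3562, plus strand, 40966 to 40977) read 1.75 and 1.35 in X1 and -3.58 and -3.99 in Xins. Its log2 fold change was -5.33 (SE 0.42), with an adjusted p of 0.000456 in limma. On Contig158 (162361 to 162366, plus strand), the site of mk4.000158.09.01 read 0.93 and 1.04 in X1 and -4.13 and -3.94 in Xins, a change of -5.03 (SE 0.33). X2 was between the gates at both sites, at -1.49 and -2.29 for the former and -1.18 and -1.03 for the latter.

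The sites on Contig34612 (plus strand, 458 to 464) and Contig11981 (plus strand, 18488 to 18510) carry probes that share at least 25 bases. The former read 1.77 and 1.83 in X1 and -3.33 and -2.82 in Xins, and the latter 0.76 and 0.6 in X1 and -4.45 and -3.73 in Xins. Their log2 fold changes, -4.88 and -4.77, are thus not independent. At Contig654 (plus strand, position 97693) X1 read 0.59 and 0.66 and Xins -3.99 and -3.84. The remaining 3 of the 8 largest falls, on Contig7138 (minus strand, 11162 to 11216), Contig6868 (plus strand, 15680 to 15722) and Contig504 (plus strand, 71998 to 71999), changed by -4.47, -4.41 and -3.78. A second sequence at Contig7138 was above background on none of the 4 arrays. At each of the 8 falls both X2 arrays lay between the arrays of X1 and those of Xins.

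Some sites were above background in 1 gate and on no array of the other. In Xins, 85 sites were above background on both arrays and on no X1 array, and 73 of these were called higher. In X1, 74 sites were above background on both arrays and on no Xins array, and 67 were called lower. Their folds are bounds, taken as the mean of the bright gate over the mean of the dim gate's lowest measurable signal, or of the probe's own signal where that is higher. The bounds had a median of at least 4.65-fold for the 73 and at least 2.53-fold for the 67. Bounds of 4-fold or more held at 41 and 12 of them. The bounds take no account of the scatter between arrays. X2 arrays were both above background at 25 of the 73 and at 36 of the 67, and neither was at 34 and 17.

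The site with the widest bound was on Contig2 (plus strand, 461489 to 461505), at 1.32 and -0.32 on the Xins arrays and at least 82.8-fold higher there than in X1. Its probe ends as follows, without AATAAA or ATTAAA, and is shown with the widest case of the opposite kind, a site on Contig1255.
Contig2 plus: taaatataattatttatttattttctcatt
Contig1255 minus: gttctaaatataactttgaattgtctttat
The sites on Contig1447 (plus strand, 21572 to 21626) and Contig245 (plus strand, 71783 to 71834) were at least 42.7-fold and at least 26.3-fold higher in Xins. At Contig1159 (minus strand, 56297 to 56324) Xins read -1.63 and -0.57, at least 22.7-fold above X1. X2 read -0.32 and -0.45 there, so both X2 arrays lay above both Xins arrays, a difference that was not tested. A second sequence, offset by 12 bases, was not above background in X1 and read -5.41 and -4.06 in Xins. Its X2 arrays, at -4.16 and -4.28, lay between those of Xins. With the mean of both sequences the log2 change was 3.96, against 5.06 with the brighter one, so the bound rests on the choice of sequence.

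The Contig1255 site (minus strand, 36645 to 36648) read -0.7 and -0.55 in X1 and was at least 34.8-fold lower in Xins. The sites on Contig226 (minus strand, 72179 to 72221), Contig231 (plus strand, 186536 to 186538) and Contig73 (minus strand, 148335 to 148342) were at least 18.4-fold, 11.4-fold and 10.8-fold lower. All 4 were still above background on both X2 arrays. On Contig73 an Xins array read -4.73, which was not marked well above background although it lies above that array's lowest marked signal. These 8 sites and the 16 largest changes were called in every alternative in which they were tested. With normexp as the background correction and quantile normalization after it, the log2 change of 18 of the 24 shrank by a factor over 1.5, among them Contig401, to 4.34, Contig3562, to -3.17, and Contig2, to 2.63. The sites were picked for large changes whose arrays do not overlap, so keeping their direction is no sign of stability.

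**Figure D3:**
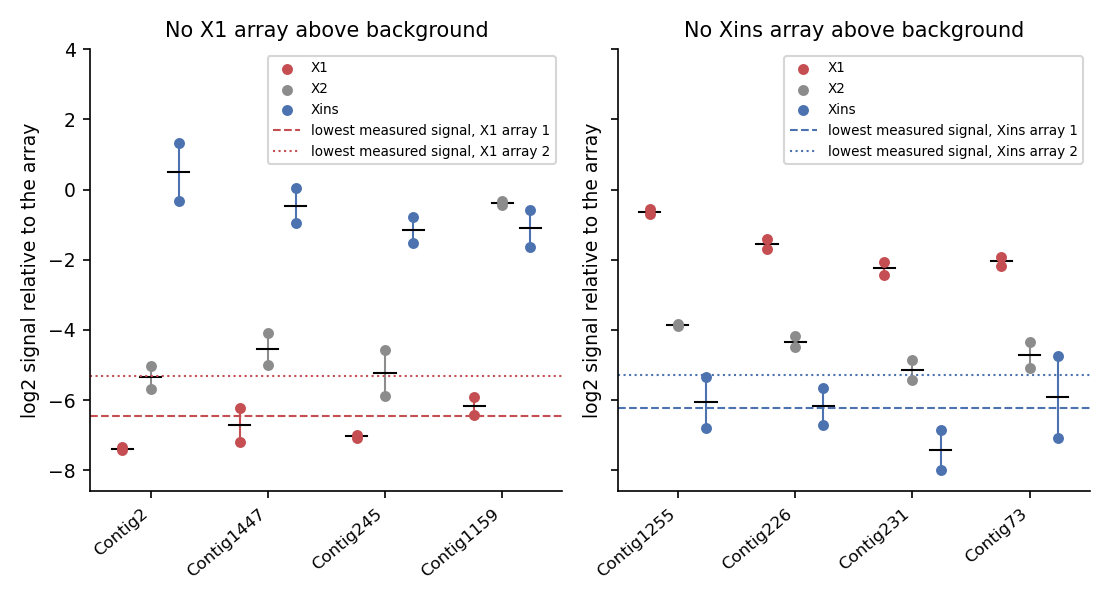
Log2 signal on each array (points) with gate means (bars) for the 4 sites with the widest bounds in each direction; dashed and dotted lines mark the lowest signal well above background on arrays 1 and 2 of the dim gate. Every X2 point was marked well above background except 1 array at Contig245, and on Contig1159 both X2 points lie above both Xins points.

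Rises were wide sites at a higher share than falls, as a description without a test. Width is the length from a site's start to its end, and it played no part in choosing the sites. Wide sites were measured more often: 77.4% of the 318 sites over 50 nt were tested, against 8.42% of the 2232 sites of a single position. Among sites above background on all 4 arrays, 126 of the 196 rises (64.3%) and 109 of the 206 falls (52.9%) spanned over 15 nt, beside 53.7% of the uncalled sites. Of the 205 sites over 50 nt, 28.3% were higher in Xins and 20.5% lower. Of the 302 sites of 2 to 15 nt, 18.5% were higher and 27.2% lower. Among the sites called from a single gate, whose direction the filter fixed, 36 of the 73 seen in Xins without X1 spanned over 15 nt, and 9 of the 67 seen in X1 without Xins; their median probe lengths were 59 and 47 bases, and these counts support nothing about width. Across the 881 sites, Pearson's r of width with log2 fold change was 0.16 and Spearman's rho 0.1; sites share arrays, so this is a description.

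The poly(A) signal hexamer stood at a higher share of falls than of rises, again as a description without a test. AATAAA started 10 to 35 bases before the probe's end at 91 of the 206 falls (44.2%), 55 of the 196 rises (28.1%) and 147 of the 479 uncalled sites (30.7%). Over all 5406 distinct sequences of the array the share was 41.6%. All hexamers and motifs were sought on the transcript's strand only. A probe need not end where a wide site ends, so shares were also taken by width. At sites of at most 15 nt, AATAAA was found at 50 of 97 falls (51.5%), 22 of 70 rises (31.4%) and 74 of 222 uncalled sites (33.3%). At wider sites the shares were 37.6%, 26.2% and 28.4%. Read the other way, 31.1% of the 293 AATAAA sites were lower in Xins and 18.8% higher, beside 23.4% and 22.2% of all 881 sites.

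The next most common signal, ATTAAA without AATAAA, stood at 3.88% of falls, 5.61% of rises, 5.01% of uncalled sites and 8.05% of all sequences. Other variants that differ from AATAAA at 1 base stood at 26.7%, 34.7%, 33.2% and 31.8% of these. Among the sites called from a single gate, AATAAA stood at 29 of the 73 seen in Xins without X1 (39.7%) and at 25 of the 67 seen in X1 without Xins (37.3%), so the higher share at falls did not extend to them. No such hexamer was present at 25.2% of falls, 31.6% of rises, 31.1% of uncalled sites and 18.5% of all sequences. The GC content of the probes was similar, with medians of 26.3% for falls, 26.7% for rises and 26.4% for uncalled sites, and the median probe length was 60 bases in each. Over the 19 alternatives the AATAAA share stayed between 40.6% and 51.2% of falls and between 27.5% and 33.9% of rises. These alternatives use the same sites and arrays, so they do not repeat the observation.

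**Figure D4:**
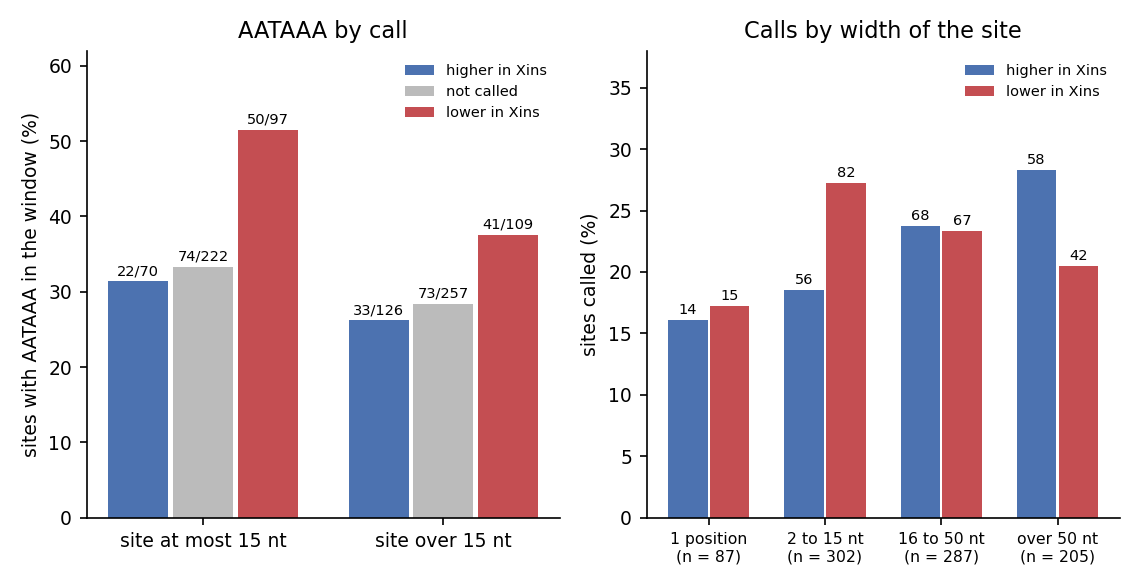
Left, share of sites with AATAAA in the window for rises, uncalled sites and falls, at narrow and wide sites, with counts above the bars; the falls have the highest share in both, 51.5% and 37.6%. Right, share of sites called higher or lower in Xins by width of the site, with counts above the bars; higher calls go from 16.1% at single positions to 28.3% over 50 nt.

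Sites with a rarer motif, TGTANATA, were mostly lower in differentiated cells. TGTANATA spells, as DNA, the core that Pumilio family proteins bind in mRNAs of other animals, and in the planarian Dugesia japonica a Pumilio gene is known to be needed for stem cells. Matches below are letters in a probe and no shown binding site. Of 21 sites with the motif on all 4 arrays, 11 were lower in Xins (52.4%), 1 was higher (4.76%) and 9 were not called. Over all 881 sites, 23.4% were lower and 22.2% higher. The log2 fold change was below 0 at 17 of the 21, with a median of -1.3. The median over all 881 sites was -0.17, so most of those were below 0 too. Contig30563 and Contig31508, both below 0 and not called, share at least 25 bases, so they are not independent measurements. The motif stood in 5.34% of falls, 0.51% of rises, 1.88% of uncalled sites and 2.48% of all sequences of the array. At 8 of the 21 sites AATAAA shares several bases with the motif, so both motifs are partly the same letters. This was so at 4 of the 11 falls. At the Contig4772 site, which was not called, AATAAA shares the motif's last base.

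Stretches of 30 bases around the motif, in capitals, are shown for the 3 largest of these falls and for the single rise.
Contig4862 minus: tatgtttatgtTGTATATAttaaattgtaa
Contig434 plus: tgattcacattTGTAAATAaatgtttttac
Contig11423 plus: taaatttggtaTGTAAATAaagtttggttt
Contig1287 plus: atcaatgtgatTGTAAATAtaatattctgt
The Contig4862 site (minus strand, 37078 to 37109) read -2.69 and -2.17 in X1 and -5.57 and -4.6 in Xins, a change of -2.66 (SE 0.5) with an adjusted p of 0.00528 in limma. The Contig434 site (plus strand, 17327 to 17334) read -0.54 and -1.65 in X1 and -3.19 and -4.11 in Xins, a change of -2.56 (SE 0.63). In both, each X1 array lay above each Xins array.

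The site on Contig11423 (plus strand, 7719 to 7724) fell by 2.46 on the log2 scale, from -1.9 and -1.56 to -4.65 and -3.73. The widest of the 11 sites, 162 nt on Contig4706 (plus strand, 18014 to 18175), had 3.08 and 3.66 in X1 and 1.7 and 2.07 in Xins. The single rise, at Contig1287 (plus strand, 35568 to 35580), went from -4.11 and -3.19 to -2.36 and -1.73, and X2 was lowest there at -5.26 and -4.66. The count of 11 among 206 falls rests on few sites and moved with the settings. It was 4 among 106 falls in the authors' value table and 3 among 86 under spike-in scaling. The replicate block gave 13 among 340. The motif count was also smaller in each fit that left out an array. Falls of any kind were fewer too in all of these settings but the block, so the motif count did not drop alone. The shorter motif TGTA stood in 74 of the 206 falls and 53 of the 196 rises. Its shares of uncalled sites, 31.7%, and of all sequences, 33.2%, lay between those of falls and rises. The AU-rich motif ATTTA is an element of short-lived mRNAs in other animals. It stood in 25.2% of falls, 28.1% of rises, 28.8% of uncalled sites and 34.4% of all sequences. Neither motif was tested for a difference.

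The progenitor gate lay between the others at most of these sites. The X2 mean was between those of X1 and Xins at 148 of the 196 rises and 188 of the 206 falls, and nearer to X1 at 127 and 168. The X2 mean lay beyond that of X1, on the side away from Xins, at 33 rises and 17 falls, and beyond that of Xins at 15 rises and 1 fall. Since the sites were chosen for a difference between the end gates, an X2 mean between them is partly set by that choice.

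Sites seldom lay close together. The called sites on all 4 arrays fell on 385 contigs, and 15 of these held at least 2 called sites with different probes, in 1 direction at 9. Over all pairs of sites on all 4 arrays, called or not, 50.2% had the same sign. Whether sites of a contig change alike was not tested. Within 5000 bases of each other there were 7 pairs of measured sites, and the log2 fold changes had the same sign in 6. The only pair with both sites called was on Contig1386, in opposite directions. Its minus strand site (position 37993) read -5.07 and -4.34 in X1 and -2.63 and -2.46 in Xins, a rise of 2.16 (SE 0.39). The plus strand site (40372 to 40403), 2379 bases further, read 0.18 and 0.77 in X1 and -1.98 and -1.23 in Xins, a change of -2.08 (SE 0.55) with an adjusted p of 0.019 in limma. The latter was not called without array 2 of X1, at -1.79, without array 1 of Xins, at -1.71, or with no filter on dim probes (adjusted p = 0.0598 in limma). The rise at the minus strand site came to 0.48 with normexp and quantile normalization and was still called.

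Where 2 probe sequences of a site were both measured in both gates, they mostly gave similar changes. Of 226 sites with 2 sequences that passed the filter, 171 had both above background on all 4 arrays. Their log2 fold changes had the same sign at 163 and differed by a median of 0.11. They differed by over 1 at 3 sites and were called in opposite directions at 0. Some second sequences are the same stretch shifted by a few bases, such as 4 at Contig6902, so part of this likeness is built in. Sites such as Contig1945, where the second sequence was below background in X1 and gave 2.7 beside 8.5, are outside the 171. At Contig1853 (minus strand, 27449 to 27513) the brighter sequence fell, from 0.64 and 0.89 in X1 to -0.67 and -0.35 in Xins, with a log2 fold change of -1.28 (SE 0.36). That call was lost in 8 of the 19 alternatives, among them each fit that left out an array (adjusted p of 0.052 to 0.13 in limma), and the change was -0.7 in the authors' value table and -0.47 as the mean over the sequences. The dimmer sequence of that site read -2.86 and -2.57 in X1 and -2.68 and -2.09 in Xins, a change of 0.33 (SE 0.39) that was not called. The brighter and dimmer sequences gave -0.45 and 0.87 at Contig49 (plus strand, 88292 to 88346) and -0.66 and 0.55 at Contig97 (minus strand, 96455 to 96597), none of them called. Whether the sequences of a site differ from each other was not tested here.

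Calls near the threshold show what the design can resolve. The last site called higher, on Contig1 (minus strand, 211619 to 211623), had a log2 fold change of 1.26 (adjusted p = 0.0498), and the nearest one not called, on Contig1503 (plus strand, 64168 to 64180), had 1.17 (0.0506). In the other direction these were Contig208 (plus strand, 139272 to 139283) with -1.45 (0.0498) and Contig4989 (plus strand, 24002 to 24009) with -1.31 (0.0511), all by limma. The Contig1 and Contig1503 sites were above background on both arrays of each gate. Contig208 and Contig4989 were so on both X1 arrays and 1 Xins array, so the filter fixed their direction. With normexp and quantile normalization the changes were 0.25 at Contig1, 1.34 at Contig1503, -0.25 at Contig208 and -0.16 at Contig4989. Calls at all of these sites moved with the settings: the Contig1 site was called in 8 of 19 alternatives and the Contig1503 site in 9 of 19, the Contig208 site in 8 of 18 and the Contig4989 site in 7 of 18.

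Of all calls, 49.0% were higher in Xins here, 66.3% in the authors' value table (382 higher, 194 lower), 61.1% with no filter on dim probes and 57.7% under spike-in scaling, and the cause was not tested. Lower calls came to 219 when the first X1 array was left out and also to 219 when the second was. The Xins arrays both lay in the second row of the slide and the X1 arrays in 1 row each, so the comparison within the second row is the one that leaves out the first X1 array, with 244 higher and 219 lower calls. Probes at 61 groups of sites (124 sites) share at least 25 bases with each other. With each group counted once, 320 groups had a higher call, 329 a lower one and 0 both. Signals were saturated on both X1 arrays at 20 sites and on both Xins arrays at 8, of which 1 was called lower (at least 3.53-fold) and 3 higher. The changes at these called sites are lower bounds. At 5 sites both arrays of both gates were saturated, and the change there is not a bound.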

How the data were processed

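Messenger RNA taken with oligo-dT was amplified linearly and labelled with Cy3 on 1-colour Agilent arrays, per the labels' protocols. Each deposited table gives linear intensity per spot, made with Feature Extraction 11.5.1.1 per the file headers. The authors' value table, used as an alternative, was read as natural log from its slope against the scanner signal; its column medians of 0.98 to 1.31 are unequal, its centring and normalization are not stated here, and the submitters' processing notes name limma only.

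Control spots and 11 outlier spots were left out. From the log2 processed signal, each array's 75th percentile was subtracted, taken over the 1914 probes that passed the background mark on all arrays (at most 28.5% of probes were so on an array). Spots of a sequence were averaged, and a site took its brightest sequence that passed the filter. limma 3.58.1 (lmFit, eBayes; R 4.3.3) was fitted to all 6 arrays, X2 adding to the spread only, with Benjamini-Hochberg adjustment over 1259 sites and a threshold of 0.05 (6.6 degrees of freedom, 3.6 from the prior). Precision is limited by the number of arrays. The fit was tested on simulated data. Scaling, background correction, filters, site summary, blocks, variance models and single arrays were varied. Named sites are the 8 largest rises and falls with non-overlapping arrays among those above background on all 4 arrays, the 4 widest bounds each way, 3 steady sites, the sites nearest the threshold, opposite neighbours and the 3 most discordant sequence pairs. The motif sites were chosen after their values were seen. The rule also asked for the brightest sites; they are not given, since signals of different probes are not comparable. The members and lists were chosen with earlier results of these data known. Gene lists and cell type markers could not be matched, because the files pair no model with a gene name. The contigs' build: not given in the sources used here.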

Additional observations from a re-analysis of the deposited data

How the results depend on the processing

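The main counts were 332 sites higher and 346 lower in Xins. Leaving out 1 array at a time gave 244 to 287 higher and 219 to 264 lower. Counts of lower sites were also off by more than a factor of 1.5 under spike-in scaling (167), in the authors' value table (194) and with no filter on dim probes (180, with 5054 sites tested). With each probe as its own row, 691 were higher and 705 lower, since most sites carry several probes. Normexp with quantile normalization gave 224 higher and 268 lower; the cause of these shifts was not tested. Site by site, log2 fold changes moved by a median of 0.50 in the authors' value table and of -0.19 under quantile normalization. With the replicate number as a block, 436 sites were higher and 516 lower, and a block for slide row gave 355 and 375. With all 4 arrays required to pass, 198 of 881 sites were higher and 209 lower. The Contig97, Contig1503 and Contig4989 sites, not called in the main fit, were called with the replicate number as a block (adjusted p = 0.0286, 0.00618 and 0.00452 in limma). The labels do not say that a number marks a shared sort. Deviations of same-numbered arrays from their gate's mean correlated at 0.478 between X1 and Xins, 0.609 between X1 and X2 and 0.391 between X2 and Xins. Differences between Xins and X1 correlated across sites at 0.937 between the same-numbered pairs of arrays and at 0.781 when the numbers were crossed. Array 1 was also brighter than array 2, with 75th percentiles of 8.683 and 7.578 on the log2 scale in X1 and 8.481 and 7.527 in Xins. Why same-numbered arrays deviate together was not tested. The 24 sites named as largest changes or bounds were called in all 448 values over the alternatives, with adjusted p up to 0.0227 in limma. They were picked for large changes on these same arrays, so staying called is no sign of stability. Depth of signal limits the rest: a site below background in a gate has a bound only.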
